A study of Mus musculus with 29 samples.

Results

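The Cyp2 family is the largest family of mouse cytochromes P450, the membrane-bound haem enzymes that insert oxygen into drugs, steroids, fatty acids and other small molecules. The members were taken as every gene in the deposited table whose symbol is Cyp2 followed by 1 letter and a number, which gave 48 of 24346 genes in 13 subfamilies. The letter names the subfamily: 15 members were Cyp2c, 9 Cyp2d, 7 Cyp2j, 5 Cyp2b and 4 Cyp2a, and the Cyp2e, f, g, r, s, t, u and w subfamilies had 1 member each. All mice were male C57BL/6J animals made obese by 10 weeks of high-fat diet, so every group, the chow groups included, carries that history. For the next 4 weeks they either stayed on high-fat diet freely fed (HFD), stayed on it but were fasted every other day (HFD-IF), moved to freely fed control chow (CC), or moved to chow and were fasted intermittently (CC-IF). Liver had 4, 2, 4 and 4 libraries in that order and hippocampus 4, 4, 4 and 3. The labels give neither the age of the mice nor whether a fasted mouse was killed on a fed or a fasted day. Levels are FPKM, fragments scaled to transcript length and library depth, as the authors deposited them, and libraries are named by the index of their column within a group, counted from 0.

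In the liver, Cyp2 enzymes sit mainly in the endoplasmic reticulum of hepatocytes and receive electrons from cytochrome P450 reductase, encoded by Por. Several are induced by foreign compounds through the nuclear receptors CAR (Nr1i3) and PXR (Nr1i2), and several differ between male and female mice under the control of growth hormone. Cyp2e1 is confined largely to hepatocytes around the central vein and Cyp2f2 to those around the portal vein. Some members, among them the Cyp2j and Cyp2c epoxygenases, act on endogenous fatty acids.

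Before the results, 3 features of the libraries bear on them. Estimated depth was 9300000 to 15600000 fragments per library in liver and 10400000 to 36200000 in hippocampus. An exact 0 in this table is not a safe measure of absence: Alb, the albumin gene, which every liver expresses at a very high level, was listed at 0 in 8 of 14 liver libraries and at 29215 to 43965 FPKM in the others. Every CC-IF liver library was among the 8, since the sum of 5 hepatocyte markers, Alb included, was 22857 to 24244 FPKM there. The liver range of that sum, given below, shifts with these zeros. Of the 2 HFD-IF liver libraries, library 1 stood apart. In it the summed FPKM of 8 Kupffer cell markers was 341.5 against 93.5 in library 0, that of 8 stellate cell and fibroblast markers was 521 against 168.7, and that of 8 pericentral hepatocyte markers was 1037 against 2261. Of the markers of brain cells, 6 neuronal markers summed to 1229 to 1519 FPKM in hippocampus and 29.0 to 84.6 in liver, and 4 oligodendrocyte markers to 998 to 1602 and 0.675 to 1.94. The lists for astrocytes, at 175.9 to 217 FPKM in hippocampus and 274 to 579 in liver, and for meninges, at 8.58 to 23.3 and 201 to 405, were higher in liver and so did not separate the tissues as named. Nor did the brain endothelium list, which overlapped at 19.3 to 26.9 FPKM in hippocampus and 10.7 to 63.6 in liver. The summed FPKM of 5 hepatocyte markers was 22857 to 78687 in liver and 8.39 to 1744 in hippocampus. The hepatocyte list is Alb, Apoa1, Ttr, Fabp1 and Serpina1a. Ttr is also expressed in choroid plexus, so a high sum in hippocampus does not by itself show hepatocyte RNA there. In each hippocampal group the library highest in the hepatocyte sum was also highest in the sum of 5 choroid plexus markers. These 2 sums were 1744 and 52.52 FPKM in HFD library 0 and 320.8 and 15.74 in HFD-IF library 0. They were 1616 and 57.44 FPKM in CC library 2 and 958 and 34.07 in CC-IF library 2. Cyp2e1 averaged 0.108 FPKM in hippocampus. The part of either sum in the hippocampal levels of members was not tested. Because the 2 HFD-IF liver libraries differed, counts of members and the changes named below are also given for that group without each of them.

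The liver carried most of the family. Over the 14 liver libraries 17 members had a mean of at least 100 FPKM and 23 of at least 10 FPKM. Cyp2e1, the ethanol- and acetone-oxidising enzyme, averaged 4656 FPKM and made up 44.5% of the family's summed FPKM. It was followed by Cyp2d9, a male-biased testosterone 16α-hydroxylase, at 918 FPKM, and by Cyp2f2, which oxidises naphthalene, at 669 FPKM. Cyp2d26 averaged 605 FPKM, Cyp2d10 479 FPKM, Cyp2c29 388 FPKM and Cyp2a5 329 FPKM. The filter for testing, a mean of at least 1 FPKM over the liver libraries, passed 30 members. The 18 members left out had means of 0.585 FPKM or less, the lowest mean that passed was 1.17 FPKM, and 7 members were listed at 0 in every liver library. In hippocampus 5 members passed and 24 were listed at 0 in every library.

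Many members lie side by side in the genome. On build GRCm38, 13 members including all of Cyp2a and Cyp2b fell within 1356 kb of chromosome 7, 14 of the 15 Cyp2c genes within 1180 kb of chromosome 19, the 9 Cyp2d genes within 424 kb of chromosome 15 and the 7 Cyp2j genes within 637 kb of chromosome 4. Close copies can exchange fragments during alignment. Among the 47 members with annotated transcripts, 30 shared no stretch of 125 nt, the length of 1 read, with another member. More than 10% of such stretches were shared in 4 members, which are Cyp2c69 (28.5%), Cyp2c40 (27.1%), Cyp2c67 (17.5%) and Cyp2c68 (13.9%). By this measure, levels within this group of 4 are the least certain among the 47. Cyp2d13, listed as a transcribed pseudogene and at a liver mean of 117 FPKM, had no transcript in the annotation used and was not assessed. How the authors' program treated fragments with several matches is not given in the sources used here. A sum over a subfamily is less open to this than a single gene, but it still shifts where fragments move between members of unequal length or to genes outside the family.

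Sums by subfamily are given first for the 3 regimens with 4 liver libraries. The Cyp2a sum was 475 ± 32.2 FPKM on HFD (SD, n = 4), 303 ± 27.1 on CC (n = 4) and 1149 ± 222 on CC-IF (n = 4), and it was 531 and 627 in the HFD-IF libraries. No CC library overlapped an HFD or CC-IF library in this sum. The Cyp2e1 level was 4225 ± 270 FPKM on HFD, 2866 ± 1109 on CC and 6854 ± 907 on CC-IF. The Cyp2c sum was 1598 ± 118 FPKM on HFD, 1517 ± 297 on CC and 1573 ± 181 on CC-IF, so that the groups overlapped although single Cyp2c genes moved in opposite directions. The Cyp2d sum was 2400 ± 177, 2102 ± 63.3 and 2522 ± 454 FPKM in the same order, and the Cyp2f sum, which is Cyp2f2 alone, 608 ± 74.9, 770 ± 132 and 698 ± 131 FPKM. The Cyp2j sum was 286 ± 9.87 FPKM on HFD, 215 ± 20.4 on CC and 182 ± 29.8 on CC-IF. The sum over all members was 9685 ± 555 FPKM on HFD, 7824 ± 1344 on CC and 13124 ± 1514 on CC-IF, and the CC and CC-IF libraries did not overlap. In HFD-IF libraries 0 and 1 the Cyp2c sum was 1780 and 659 FPKM, the Cyp2d sum 2666 and 1411, the Cyp2f sum 612 and 454 and the Cyp2j sum 253 and 102. The family sum in these libraries was 12945 and 5651 FPKM, so library 1 was the lower in each of these sums. Cyp2e1 held 41.7% to 44.6% of the family's FPKM in HFD libraries, 28.7% to 46.4% in CC libraries and 50.4% to 55.1% in CC-IF libraries, and 54.3% and 41.9% in the HFD-IF libraries.

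**Figure D1:**
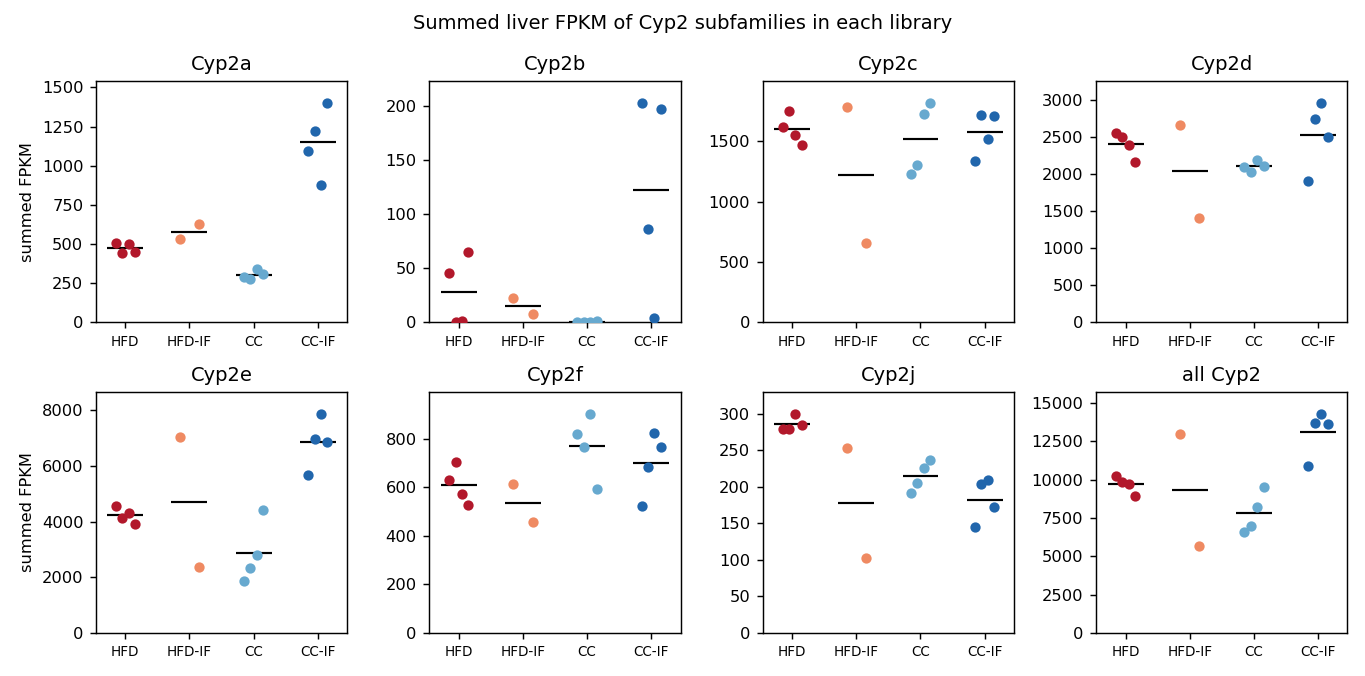
Summed FPKM of each subfamily (vertical axis, from 0) in every liver library, by regimen on the horizontal axis. Points are libraries and horizontal lines are group means. The Cyp2a and Cyp2e panels show the 4 CC-IF libraries above all CC libraries, the Cyp2c panel shows overlapping groups, and the 2 HFD-IF libraries lie far apart in the Cyp2c, Cyp2d, Cyp2e and Cyp2j panels.

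Tests were run with limma on log2(FPKM + 1) over all 11497 liver genes that passed the filter, and a member counts as changed when its Benjamini-Hochberg adjusted p over all those genes is under 0.05. Changes below are log2 differences on that scale with their standard errors. CC-IF against CC gave the most changes. Against CC, 11 of the 30 tested members were higher on CC-IF (36.7%) and 3 lower (10%), where 14.2% of all liver genes tested were higher and 9.77% lower. The median change of the tested members was 0.25, beside 0.02 over all tested genes. The higher members were all 4 Cyp2a genes, Cyp2b9, Cyp2c38, Cyp2c39, Cyp2c68, Cyp2d22, Cyp2d26 and Cyp2e1, and the lower ones were Cyp2c67, Cyp2c70 and Cyp2u1. In bulk tissue, fewer cells of a type and less RNA per cell cannot be told apart.

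The switch from HFD to CC without fasting changed 2 members. Cyp2a5 was lower and Cyp2c67 higher on CC, which is 3.33% of the tested members in each direction, where 0.339% of all tested genes were higher and 1.97% lower. With fasting on high-fat diet 0 of the 30 passed the same limma test, where 0.357% of all genes were higher and 0.965% lower. An unadjusted p under 0.05 was reached by 8 of the 30 and by 17.8% of all genes. CC-IF against HFD, the sum of the diet switch and fasting, had 8 members higher (26.7%) and 4 lower (13.3%), where 12.4% of all genes were higher and 11.3% lower. These contrasts share groups and are not independent of one another.

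**Figure D2:**
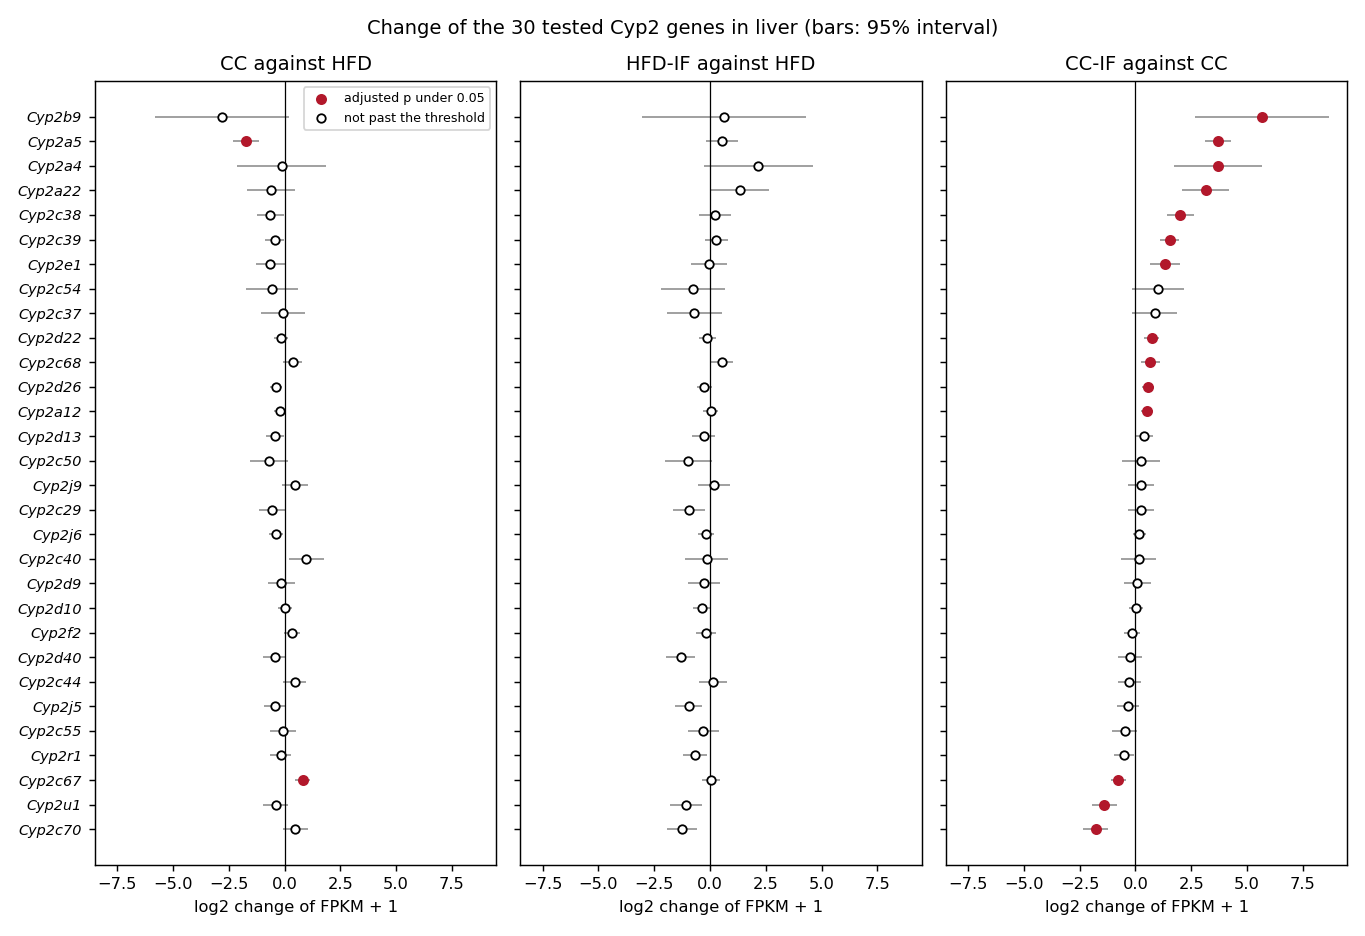
Log2 change of FPKM + 1 (horizontal axis) of the 30 tested Cyp2 genes in liver, ordered by their change in CC-IF against CC, in 3 contrasts. Points are limma estimates, bars their 95% intervals, and filled points have an adjusted p under 0.05. The filled points number 2 in CC against HFD, 0 in HFD-IF against HFD and 14 in CC-IF against CC, and the widest bars belong to Cyp2b9 and Cyp2a4.

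Cyp2a5, the coumarin 7-hydroxylase, had the smallest adjusted p of the 30 members in CC-IF against CC. Its FPKM was 198, 132, 239 and 208 in the HFD libraries, 271 and 282 in the HFD-IF libraries, 39.3, 42.3, 76.7 and 78.9 in the CC libraries and 759, 857, 496 and 931 in the CC-IF libraries. The 4 regimens did not overlap, with CC lowest, HFD and HFD-IF between, and CC-IF highest. The change was -1.73 ± 0.26 for CC against HFD (limma adjusted p = 0.0108) and 3.69 ± 0.26 for CC-IF against CC (limma adjusted p = 8.15e-06), a ratio of mean FPKM of 12.8. On high-fat diet the fasting change was 0.54 with a 95% interval from -0.16 to 1.24, and it was 0.57 without HFD-IF library 0 and 0.51 without library 1. The difference between the 2 fasting changes, tested as an interaction, was 3.15 ± 0.42 (limma adjusted p = 0.0116), and Cyp2a5 was the only 1 of 30 members past the threshold in that test, where 1.00% of all genes were higher and 0.113% lower. Without HFD-IF library 0 there were 13 members past it, all higher, where 15.4% of all genes passed, and without library 1 there was 1, where 0.246% did. For Cyp2a5 itself, without HFD-IF library 0 the interaction was 3.12 (adjusted p = 0.00298) and without library 1 it was 3.18 (adjusted p = 0.0296).

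Cyp2a4, a testosterone 15α-hydroxylase found mainly in female liver, is the nearest copy of Cyp2a5. The coding sequences differ at 23 of 1482 nt, and 6.32% of 125-nt stretches of Cyp2a4 occur in Cyp2a5. Cyp2a4 was listed at 0.0668, 0, 0.115 and 2.17 FPKM in the HFD libraries, at 0.423 and 26.5 in HFD-IF, at 0.0447, 0.365, 0.259 and 0.462 in CC, and at 38.3, 5.37, 3.64 and 61.6 in CC-IF. All 4 CC-IF libraries were above all HFD and CC libraries but differed widely among themselves. CC-IF library 1, with 5.37 FPKM of Cyp2a4, had the second-highest level of Cyp2a5, so the orders of the libraries in these genes differ. The change of CC-IF against CC was 3.69 ± 0.92 (limma adjusted p = 0.0113). Cyp2a22 rose by 3.14 ± 0.49, from 0.159, 0.620, 0.367 and 0.544 FPKM on CC to 17.0, 13.4, 3.74 and 18.5 FPKM on CC-IF (limma adjusted p = 0.000763). Its nearest copy Cyp2a12, a member of high basal level, had 228 to 261 FPKM on CC and 280 to 389 FPKM on CC-IF and rose by 0.51 ± 0.12 (limma adjusted p = 0.00899). Cyp2a5 made up 13.6% to 25.6% of the Cyp2a sum in CC libraries and 56.7% to 70.0% in CC-IF libraries.

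The 250 bases before the RefSeq start sites of Cyp2a4 and Cyp2a5 are shown because the levels of these genes differ widely although the stretches are nearly the same, with 245 of 249 aligned bases identical. They are from RefSeq on GRCm38.p6, plus strand, at chr7:26306942-26307191 and chr7:26835089-26835338. Capitals mark the 4 bases that differ and, at one end of each, the base that has no partner in the other window.
Cyp2a4: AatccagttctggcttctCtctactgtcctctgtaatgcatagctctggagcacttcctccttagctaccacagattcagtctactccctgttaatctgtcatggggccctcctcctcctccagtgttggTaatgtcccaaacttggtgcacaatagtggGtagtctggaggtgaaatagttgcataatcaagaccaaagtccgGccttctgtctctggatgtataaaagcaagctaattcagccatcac
Cyp2a5: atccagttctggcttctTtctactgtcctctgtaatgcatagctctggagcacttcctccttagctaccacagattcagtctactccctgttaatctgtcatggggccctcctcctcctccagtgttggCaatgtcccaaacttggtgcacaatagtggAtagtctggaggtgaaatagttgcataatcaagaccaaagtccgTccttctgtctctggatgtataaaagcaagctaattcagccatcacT

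Of the 5 Cyp2b genes only Cyp2b9 passed the filter. It is a female-predominant member, while Cyp2b10 is the textbook target gene of CAR. Cyp2b9 was at 44.4, 0.175, 0.622 and 63.0 FPKM in the HFD libraries, at 22.1 and 6.85 in HFD-IF, at 0, 0, 0.280 and 0.808 in CC, and at 201, 85.4, 3.62 and 196 in CC-IF. The CC-IF libraries lay above the CC libraries without overlap, whereas the HFD libraries split into a pair above 40 FPKM and a pair below 1 FPKM. CC-IF against CC gave 5.68 ± 1.39 (limma adjusted p = 0.0103), with a 95% interval from 2.68 to 8.68. For CC against HFD the change was -2.81 with an interval from -5.81 to 0.19, which did not pass. The HFD libraries 0 and 3, the pair high in Cyp2b9, also had the highest sums of 5 adipocyte markers, 84.0 and 48.5 FPKM against 6.21 and 13.7 in libraries 1 and 2. Adipoq, Plin1 and Lep of that list were at 0 in all 4 HFD libraries, where the sum came from Cfd and Cidec. In CC-IF libraries 0 to 3 the adipocyte sum was 5.26, 6.90, 2.63 and 4.39 FPKM, below that of HFD libraries 0 and 3. It was 18.3 and 42.9 FPKM in HFD-IF libraries 0 and 1 and 0.513 to 1.97 on CC. The part of this sum in the Cyp2b9 levels was not tested. Cyp2b10 stayed at 0.687 FPKM or less and Cyp2b13 at 1.27 FPKM or less in every liver library, and neither was tested.

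**Figure D3:**
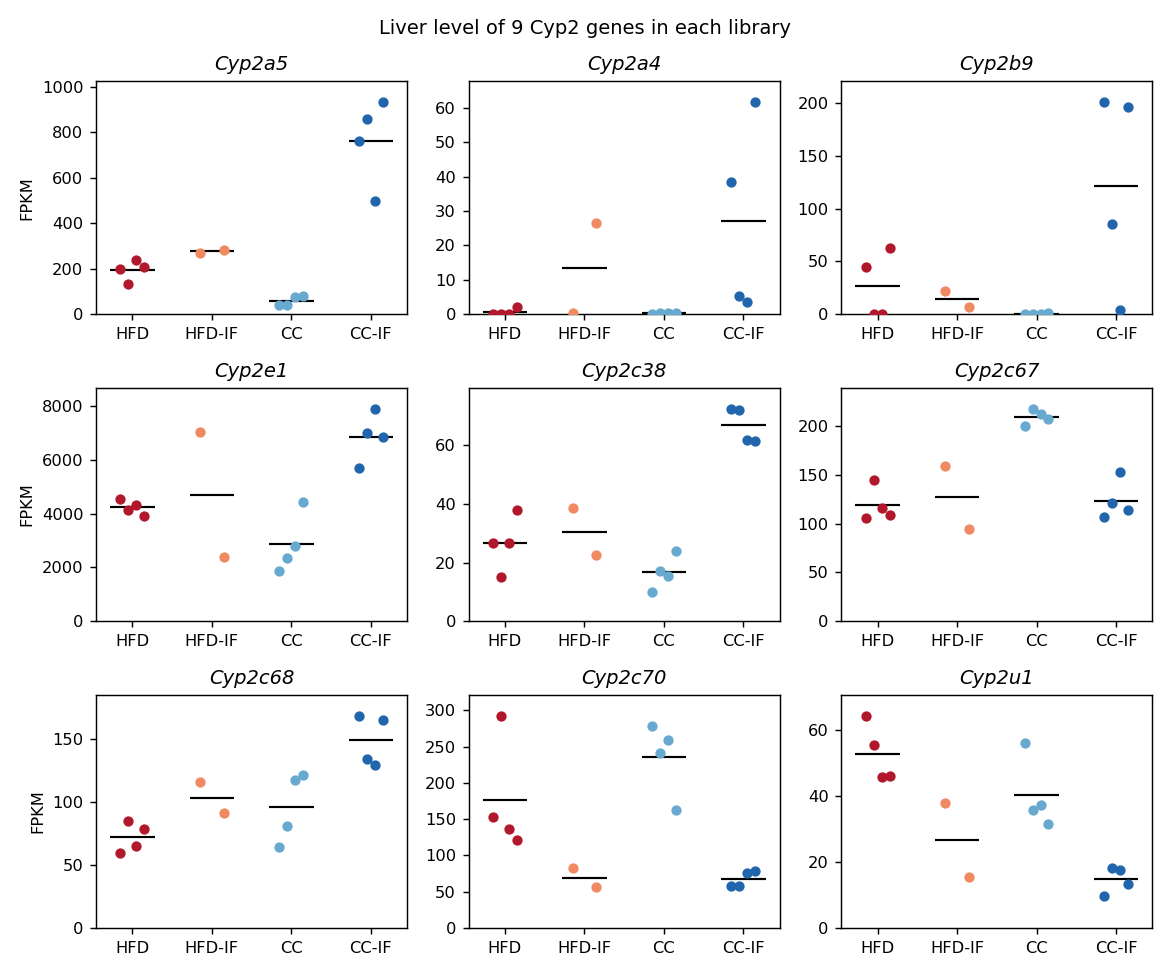
FPKM (vertical axes, from 0, a different scale in each panel) of 9 Cyp2 genes in every liver library, by regimen on the horizontal axes. Points are libraries and horizontal lines are group means. In the panels of Cyp2a5 and Cyp2c38 the 4 CC-IF libraries lie above all others, in that of Cyp2c67 the 4 CC libraries do, and in that of Cyp2c70 the CC-IF and HFD-IF libraries lie below all HFD and CC libraries.

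In the Cyp2c subfamily 3 of 12 tested members rose in CC-IF against CC, 2 fell and 7 did not pass. Of all liver genes tested, 14.2% were higher and 9.77% lower in this contrast. Cyp2c38 rose by 2.01 ± 0.28, from 9.78, 17.3, 15.5 and 24.0 FPKM to 72.4, 72.2, 62.0 and 61.6 FPKM (limma adjusted p = 0.00032). Its neighbour and nearest copy Cyp2c39, a retinoic acid hydroxylase, rose by 1.53 ± 0.20, at levels of 0.285 to 0.991 FPKM on CC and 2.44 to 4.98 FPKM on CC-IF (limma adjusted p = 0.000201). Cyp2c70, which makes the muricholic acids that distinguish mouse from human bile, fell by 1.78 on the log2 scale, with an SE of 0.26 (limma adjusted p = 0.000433). Cyp2c70 was at 279, 241, 259 and 162 FPKM in CC libraries and at 57.4, 57.5, 75.5 and 77.9 in CC-IF libraries. In HFD-IF it was at 83.0 and 56.0 FPKM against 121 to 292.5 FPKM on HFD, so the fasted groups lay below the freely fed groups on both diets. The fasting change on high-fat diet was -1.26 ± 0.31 (limma adjusted p = 0.0717). Without HFD-IF library 0 it was -1.54 and passed (limma adjusted p = 0.0232), and without library 1 it was -0.98 and did not (limma adjusted p = 0.341). The interaction for Cyp2c70 was -0.52 with a 95% interval from -1.40 to 0.36, and -0.24 without library 0 and -0.80 without library 1, with no value past the threshold.

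Cyp2c67 and Cyp2c68 are adjacent genes whose coding sequences differ at 42 of 1473 nt, and they changed in opposite directions. Cyp2c67 was at 106, 145, 117 and 109 FPKM on HFD, at 159.5 and 94.7 on HFD-IF, at 200.3, 218, 213 and 208 on CC, and at 107, 121, 153 and 114 on CC-IF. CC stood above both HFD and CC-IF without overlap. The change was 0.82 ± 0.16 for CC against HFD (limma adjusted p = 0.0206) and -0.77 ± 0.16 for CC-IF against CC (limma adjusted p = 0.00354). Cyp2c68 was at 64.2, 81.0, 117 and 122 FPKM on CC and at 169, 134, 129.7 and 166 on CC-IF, a change of 0.67 ± 0.19 (limma adjusted p = 0.0246). The ratio of Cyp2c67 to Cyp2c68 within a library was 1.39 to 1.78 on HFD, 1.71 to 3.12 on CC and 0.635 to 1.18 on CC-IF. Both genes share 125-nt stretches with other members, so that a part of each level depends on how fragments were assigned. Leaving out single libraries ended the Cyp2c67 call for CC against HFD in 6 cases, those of HFD libraries 0, 2 and 3 and CC libraries 0, 1 and 2, with an adjusted p of up to 0.0711. It ended the Cyp2c68 call in 4 cases, those of CC libraries 0 and 1 and CC-IF libraries 0 and 3, with an adjusted p of up to 0.0719.

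The other Cyp2c genes of high level did not pass in CC-IF against CC. Cyp2c29 was at 255 to 427 FPKM on CC and 315 to 443 on CC-IF, a change of 0.24 with a 95% interval from -0.34 to 0.82. Cyp2c44, an arachidonic acid epoxygenase that lies apart from the cluster, changed by -0.28, with an interval from -0.79 to 0.23. Cyp2c37, Cyp2c50 and Cyp2c54, which are copies of one another, had changes of 0.86, 0.25 and 0.99, and for each of these the 95% interval included 0. Cyp2c40 had a level of 0.320 to 0.750 FPKM on HFD, 1.31 to 2.22 on CC and 1.07 to 1.45 in 3 CC-IF libraries with 8.001 in library 3. It passed in CC-IF against HFD at 1.12 ± 0.36 (limma adjusted p = 0.0398), and the call was lost without any 1 of 7 libraries, HFD libraries 0 to 3 and CC libraries 1 to 3. Without CC-IF library 3, which has the level of 8.001 FPKM, the change was 0.63 and still passed (limma adjusted p = 0.0183).

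The promoters of Cyp2c38, Cyp2c67, Cyp2c68 and Cyp2c70 are shown because these genes moved most or moved in opposite directions within 1 cluster, and they were searched for a pair of short motifs on both strands. TTANGTAA, where N is any base, was used as a loose form of the core of the element bound by the clock-controlled factors Dbp, Tef and Hlf. CAAAGTCCA is part of the element bound by the hepatocyte factor Hnf4a. Neither motif lies within the other. In the 250 bases before the start, TTANGTAA was in 1 of the 40 members matched, Cyp2c38, and in 2.06% of 32851 RefSeq promoters. CAAAGTCCA was in 6 of the 40, which are Cyp2c40, Cyp2c65, Cyp2c67, Cyp2c68, Cyp2c69 and Cyp2c70, and in 0.384% of all. Most of those 6 are close copies of one another, so they are not independent. The sequences are from RefSeq on GRCm38.p6, all from the minus strand of chromosome 19, at chr19:39463076-39463325 for Cyp2c38, chr19:39649043-39649292 for Cyp2c67, chr19:39741102-39741351 for Cyp2c68 and chr19:40187287-40187536 for Cyp2c70. Capitals mark CAAAGTCCA in Cyp2c67, Cyp2c68 and Cyp2c70. In Cyp2c38 they mark TTACCTAA, which is a match to TTANGTAA on the opposite strand, where its reverse complement reads TTACNTAA.
Cyp2c38: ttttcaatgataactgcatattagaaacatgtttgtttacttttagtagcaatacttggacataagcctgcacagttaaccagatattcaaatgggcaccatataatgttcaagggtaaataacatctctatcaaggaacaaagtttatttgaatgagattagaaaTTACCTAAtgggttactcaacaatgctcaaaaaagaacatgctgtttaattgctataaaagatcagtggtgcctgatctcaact
Cyp2c67: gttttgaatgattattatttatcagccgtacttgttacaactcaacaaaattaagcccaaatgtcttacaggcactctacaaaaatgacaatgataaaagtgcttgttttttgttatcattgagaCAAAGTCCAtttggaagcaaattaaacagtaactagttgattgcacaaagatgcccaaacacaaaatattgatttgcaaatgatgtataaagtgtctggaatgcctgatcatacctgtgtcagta
Cyp2c68: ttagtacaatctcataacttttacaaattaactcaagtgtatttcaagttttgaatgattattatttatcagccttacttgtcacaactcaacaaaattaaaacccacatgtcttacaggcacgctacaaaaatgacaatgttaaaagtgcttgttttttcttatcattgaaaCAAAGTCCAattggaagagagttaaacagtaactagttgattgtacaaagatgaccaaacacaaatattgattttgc
Cyp2c70: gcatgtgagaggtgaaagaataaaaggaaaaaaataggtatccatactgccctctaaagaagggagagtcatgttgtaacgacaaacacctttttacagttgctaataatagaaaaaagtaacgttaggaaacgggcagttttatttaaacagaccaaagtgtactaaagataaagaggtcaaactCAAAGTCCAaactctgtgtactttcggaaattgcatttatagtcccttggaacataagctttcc

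The aligned parts of the Cyp2c67 and Cyp2c68 windows were 93.1% identical and both hold CAAAGTCCA, while the genes changed in opposite directions. Cyp2c70 also holds it and fell, and Cyp2c40, which holds it too, did not pass in CC-IF against CC. A match is only a run of letters, and no binding was measured here.

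**Figure D4:**
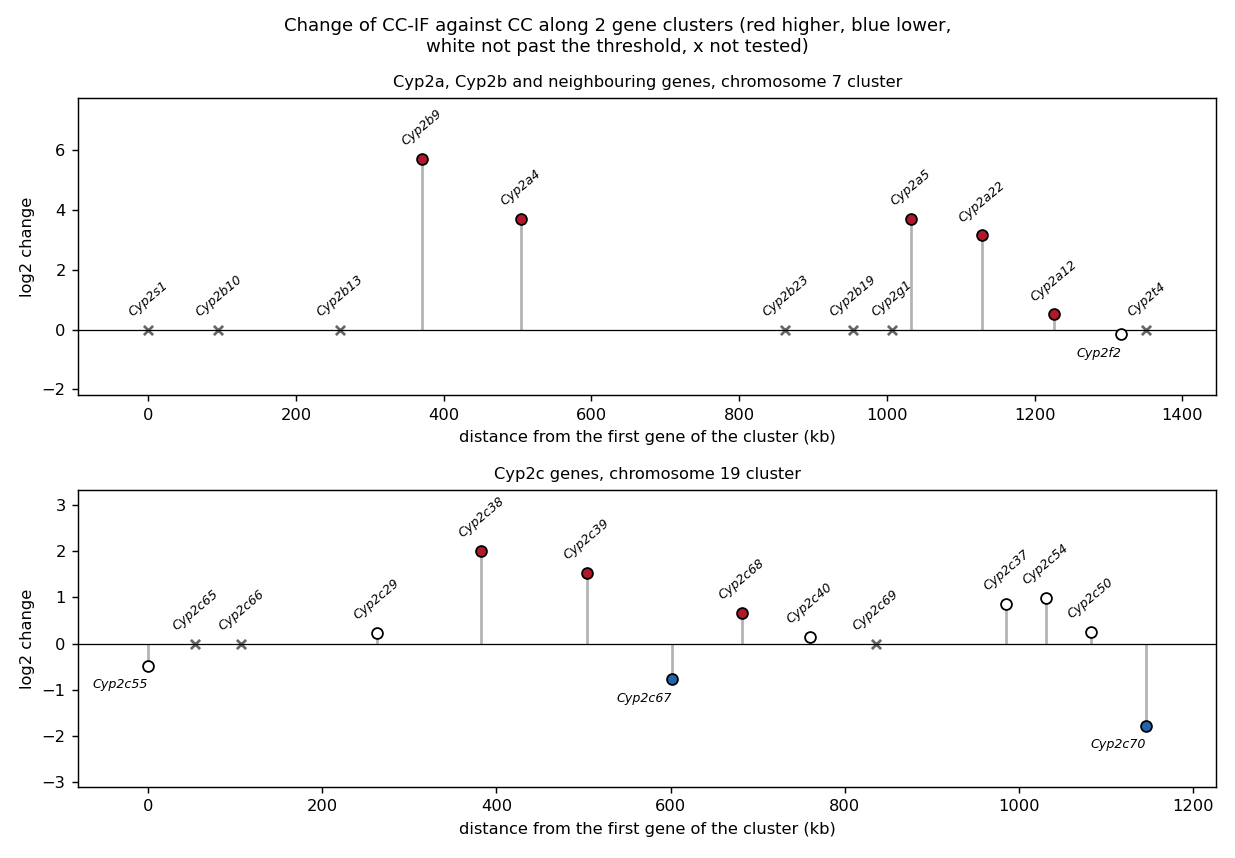
Log2 change of CC-IF against CC in liver (vertical axis) by the distance of each gene from the first gene of its cluster in kb (horizontal axis), for the Cyp2a and Cyp2b cluster (top) and the Cyp2c cluster (bottom). Red points rose, blue points fell, white points did not pass the adjusted threshold, and crosses at 0 mark genes that were not tested. Of the 5 genes that rose in the upper panel, Cyp2b9 and Cyp2a4 are neighbours, and so are Cyp2a5, Cyp2a22 and Cyp2a12. The untested genes Cyp2b23, Cyp2b19 and Cyp2g1 lie between these runs. In the lower panel the neighbours Cyp2c67 and Cyp2c68 point in opposite directions.

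Cyp2e1 rose by 1.32 ± 0.30 in CC-IF against CC (limma adjusted p = 0.00753). It was at 1881, 2342, 2811 and 4429 FPKM in CC libraries and at 5678, 6991, 7886 and 6859 FPKM in CC-IF libraries, which did not overlap. The HFD libraries lay between at 4547, 4116, 4319 and 3918 FPKM, overlapping the highest CC library, and the HFD-IF libraries were at 7032 and 2368 FPKM. CC against HFD gave -0.63 with a 95% interval from -1.29 to 0.03. Cyp2f2, the periportal member, was at 592 to 903 FPKM on CC and 521 to 824 on CC-IF, a change of -0.14 with an interval from -0.51 to 0.22. The ratio of Cyp2e1 to Cyp2f2 was 2.29 to 7.48 in CC libraries and 8.97 to 10.9 in CC-IF libraries. The summed level of 8 pericentral markers was 1474 to 1715 FPKM on CC and 1187 to 1747 on CC-IF, of which 1 was higher (Oat) and 2 were lower (Cyp1a2, Lect2). That of 8 periportal markers was 3507 to 3819 FPKM on CC and 4408 to 5556 on CC-IF, of which 3 were higher (Cps1, Gls2, Sds). The part of these shifts in the Cyp2e1 change was not tested.

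In the Cyp2d subfamily 2 of 6 tested members rose in CC-IF against CC and none fell, where 14.2% of all liver genes tested were higher and 9.77% lower. Cyp2d22, the mouse gene often compared with human CYP2D6, rose by 0.72 ± 0.15, from 93.3, 94.6, 99.4 and 113 FPKM to 150.0, 181, 160.3 and 169.6 FPKM (limma adjusted p = 0.00355). Cyp2d26 rose by 0.55 ± 0.13, from 438 to 541 FPKM on CC to 617 to 769 on CC-IF (limma adjusted p = 0.00705). The male-biased Cyp2d9 had 777 to 924 FPKM on CC and 539 to 1310 on CC-IF, a change of 0.09 with a 95% interval from -0.50 to 0.68. Cyp2d10 changed by 0.01, with an interval from -0.30 to 0.33.

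Of the remaining subfamilies, Cyp2u1 was the only tested member past the threshold in CC-IF against CC, while the 3 Cyp2j members and Cyp2r1 did not pass. Cyp2u1, a long-chain fatty acid hydroxylase, was at 56.1, 35.9, 37.3 and 31.7 FPKM on CC and at 9.77, 18.2, 17.5 and 13.5 on CC-IF, and its change was -1.39 ± 0.26 (limma adjusted p = 0.00236). Against HFD, where it was at 64.4, 55.4, 45.7 and 46.0 FPKM, the CC-IF change was -1.80 ± 0.26 (limma adjusted p = 0.000668). Cyp2j5, the main hepatic epoxygenase of its subfamily, was at 249.6, 252, 269 and 255 FPKM on HFD, at 167 to 212 on CC and at 118 to 172 on CC-IF. Its change of CC-IF against HFD was -0.77 ± 0.23 (limma adjusted p = 0.0277), and that of CC-IF against CC was -0.33 with a 95% interval from -0.82 to 0.17. Cyp2r1, a vitamin D 25-hydroxylase, was at 10.7 to 12.6 FPKM on HFD and 5.27 to 10.6 on CC-IF, a change of -0.70 ± 0.21 (limma adjusted p = 0.0282). The calls of Cyp2j5 and Cyp2r1 were lost without certain single libraries, with an adjusted p of up to 0.0752 and 0.0759. For Cyp2j5 these were HFD libraries 0 to 3 and CC-IF libraries 0 and 3, and for Cyp2r1 HFD libraries 2 and 3 and CC-IF libraries 0, 1 and 3.

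Set against HFD, the livers of mice that had both the chow switch and fasting kept several of these differences. Of the Cyp2a genes, Cyp2a5 was higher by 1.96 ± 0.26 (limma adjusted p = 0.000443), Cyp2a22 by 2.52 ± 0.49 (limma adjusted p = 0.00357) and Cyp2a4 by 3.56 ± 0.92 (limma adjusted p = 0.0144), while Cyp2a12 did not pass. Of the Cyp2c genes, Cyp2c38 was higher by 1.37 ± 0.28, Cyp2c39 by 1.104 ± 0.20 and Cyp2c68 by 1.04 ± 0.19 (limma adjusted p = 0.00415, 0.00204 and 0.00271). Cyp2c70 was lower, at -1.30 ± 0.26 (limma adjusted p = 0.00374), and Cyp2d22 higher, at 0.56 ± 0.15 (limma adjusted p = 0.0151). The HFD and CC-IF libraries overlapped for none of these genes except Cyp2a12. Apart from Cyp2a12, these genes were called on the same libraries, so the lack of overlap adds no support. The share of all genes without overlap was not computed. Cyp2c67, which differed between CC and each of HFD and CC-IF, did not pass in CC-IF against HFD. CC-IF is shared with the contrast against CC, so these values are not independent of it.

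Fasting on high-fat diet rests on 2 liver libraries that disagreed for many members. Cyp2c29 was at 421 and 149.9 FPKM in HFD-IF libraries 0 and 1, Cyp2e1 at 7032 and 2368, Cyp2j5 at 217 and 80.7, and Cyp2a4 at 0.423 and 26.5. Library 0 was the higher for the first 3 and the lower for Cyp2a4. With library 1 as the only HFD-IF library, 14 members passed in HFD-IF against HFD, 2 higher (Cyp2a4 and Cyp2a22) and 12 lower, where 14.2% of all genes passed. With library 0 as the only one, 0 members passed, where 0.0439% of all genes passed. In CC-IF against HFD-IF no member passed with both libraries by limma, where 0.391% of all genes were higher and 0.200% lower, while an unadjusted p under 0.05 was reached by 10 of the 30 and by 18.2% of all genes. Without library 0 the count was 13, all higher on CC-IF, where 15.4% of all genes passed, and without library 1 it was 0, where 0.0439% did. A lone library is assumed in these fits to vary like the other groups. Cyp2a5 was at 271 and 282 FPKM in the same libraries, so it did not share this disagreement. The higher sums of Kupffer cell, stellate cell and fibroblast markers in library 1 move with these differences, and their part was not tested.

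The genes that serve the Cyp2 enzymes were described from lists chosen with earlier results of these data known. Of 6 genes of electron transfer to P450, CC-IF against CC raised 1 and lowered 1. Por was at 44.5, 50.9, 94.6 and 110.4 FPKM on CC and at 602, 633, 583 and 707 on CC-IF, a rise of 3.15 ± 0.26 (limma adjusted p = 1.78e-05). Cyb5b, the mitochondrial outer membrane cytochrome b5, fell by 0.69 on the log2 scale (limma adjusted p = 0.0185), a call lost without CC library 2 (adjusted p = 0.0547). Por also rose in HFD-IF against HFD, by 1.54 ± 0.32 (limma adjusted p = 0.0339), with 246 and 265 FPKM against 61.7 to 113.6 on HFD. That change of Por was 1.60 without HFD-IF library 0 (limma adjusted p = 0.0265) and 1.49 without library 1 (limma adjusted p = 0.194), and the call was also lost without any 1 of the 4 HFD libraries or of CC-IF libraries 0, 1 and 3, with no filter or with only HFD and HFD-IF fitted (adjusted p = 0.0183 to 0.194 over all alternatives). Of 12 genes of haem synthesis and breakdown 3 rose and 1 fell in CC-IF against CC. Alas1, the rate-limiting enzyme of haem synthesis, changed by 1.49 ± 0.53 and did not pass (limma adjusted p = 0.0590), but it passed without HFD library 1 or 2 or CC library 2, or with only CC and CC-IF fitted, with an adjusted p of 0.0207 to 0.159 over all alternatives.

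Among 23 nuclear receptors and liver factors that control Cyp2 genes, 6 were higher in CC-IF against CC and none lower. Nr1i3, which encodes CAR, rose by 2.25 ± 0.36, from 16.6, 18.8, 23.2 and 44.5 FPKM to 112.7, 122, 113.5 and 121 FPKM (limma adjusted p = 0.00093). Nr1i2, which encodes PXR, rose by 0.80 ± 0.14 (limma adjusted p = 0.00179), and Ppara, the fatty acid sensor, by 0.99 ± 0.21 (limma adjusted p = 0.0044). Of 6 PAR bZIP factors and clock partners 4 were higher and none lower. Dbp was at 2.18, 0.230, 0.337 and 10.4985 FPKM on CC and at 67.5, 42.4, 50.6 and 41.6 on CC-IF, a rise of 4.18 ± 0.86 (limma adjusted p = 0.00403). Tef rose by 2.83 ± 0.36 (limma adjusted p = 0.000196). Dbp varied between libraries of a group on CC and on HFD, and the hour of killing is not in the labels.

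Of 10 genes of the growth hormone axis and sex-biased liver factors, CC-IF against CC raised 2 and lowered 1. Cux2, a female-biased liver factor, was at 0.118 to 0.441 FPKM on CC and at 15.7, 1.25, 3.16 and 9.19 on CC-IF, a rise of 2.37 ± 0.45 (limma adjusted p = 0.00256). CC-IF libraries 0 and 3, the highest in Cux2, were also the highest in Cyp2a4 and Cyp2b9, an order given over 4 libraries as a description. Of the 5 tested genes among other xenobiotic P450s, 4 Cyp3a genes rose and Cyp1a2 fell. Cyp3a11 rose by 1.85 ± 0.46 (limma adjusted p = 0.012), and Cyp1a2 fell by 0.96 on the log2 scale (limma adjusted p = 0.0226), a call lost without CC library 1 or 2 or CC-IF library 0 or 3, with an adjusted p of up to 0.0659. Of 39 tested genes of conjugation and transport 12 rose and 4 fell, and of 10 tested other polyunsaturated fatty acid oxygenases 4 rose and 1 fell. The shares for all genes given above for the same contrast are the background to each of these counts.

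Among the members below the filter in liver, Cyp2g1 was listed at 1.41, 0.558, 0.502 and 0.437 FPKM on CC-IF and at 0, 0, 0.0975 and 0.0800 FPKM on CC. These low values were not tested. Cyp2g1 falls under the rule for naming members as the only member of its subfamily, a rule set with earlier results of these data known.

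In hippocampus levels were low, and no tested member passed the threshold. The 5 members that passed the filter were Cyp2d22, Cyp2j9, Cyp2u1, Cyp2j6 and Cyp2s1, and 38 of the 48 members had a lower mean there than in liver. Cyp2d22 was at 7.07 ± 0.21 FPKM on HFD (SD, n = 4), 8.26 ± 0.38 on HFD-IF (n = 4), 7.70 ± 0.44 on CC (n = 4) and 8.06 ± 0.44 on CC-IF (n = 3). Cyp2j9 was at 6.25, 6.57 and 5.66 FPKM on CC-IF and at 8.30, 8.27, 6.41 and 8.39 on CC, a change of -0.30 with a 95% interval from -0.54 to -0.06 that did not pass after adjustment (limma adjusted p = 0.618). The mean of Cyp2j9 over all libraries of a tissue was 7.70 FPKM in liver and 7.23 in hippocampus, but liver libraries ranged from 3.25 to 13.5 FPKM. On HFD it was at 5.58, 5.002, 5.02 and 6.14 FPKM in liver and 6.37 to 8.87 FPKM in hippocampus, which did not overlap. By limma 0.00778% of the 12857 hippocampal genes, which is Dbp alone, passed in CC-IF against CC and 0% in each other contrast. The Dbp call was lost without any 1 of 5 libraries, CC libraries 0, 1 and 3 and CC-IF libraries 0 and 1, with an adjusted p of up to 0.212. At an unadjusted p under 0.05, CC-IF against CC gave 1 of the 5 members and 6.39% of all genes, and the interaction 1 member and 3.39%. With HFD-IF set against HFD these were 2 members and 7.60%, and with CC-IF set against HFD 2 members and 8.80%. The switch to CC gave 0 members and 3.56%, and CC-IF set against HFD-IF 0 members and 2.98%.

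Whether the change of CC-IF against CC differed between tissues was tested for the 4 members that passed the filter in both, with all libraries treated as independent. Of these, 2 passed, where 13.8% of 9939 genes did. The liver change exceeded the hippocampal change by 0.66 ± 0.16 for Cyp2d22 (limma adjusted p = 0.00653). For Cyp2u1 the liver change was lower by this measure, at -1.60 ± 0.29 (limma adjusted p = 0.00055), with hippocampal levels of 3.55 to 4.67 FPKM on CC and 4.43 to 5.14 on CC-IF. Cyp2j6 and Cyp2j9 did not pass, at 0.13 ± 0.19 and 0.54 ± 0.31.

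**Figure D5:**
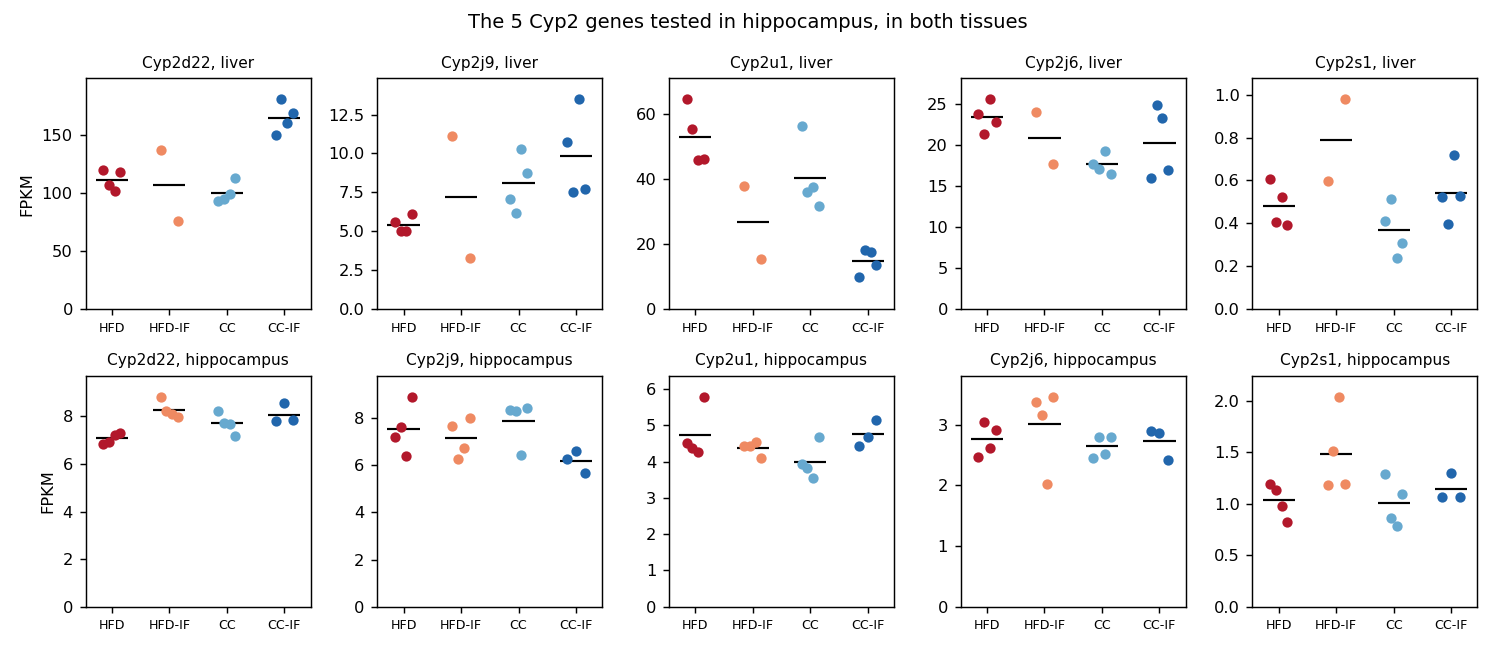
FPKM (vertical axes, from 0, a different scale in each panel) of the 5 Cyp2 genes tested in hippocampus, in liver (top) and hippocampus (bottom), by regimen on the horizontal axes. Points are libraries and horizontal lines are group means. The 4 CC-IF liver libraries lie above the CC libraries for Cyp2d22 and below them for Cyp2u1, while in hippocampus the CC and CC-IF libraries of these genes overlap.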

How the data were processed

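Liver and hippocampal polyadenylated RNA was sequenced as strand-specific paired reads. The authors deposited FPKM for 24346 genes. The submitters' processing notes name build GRCm38 (mm10), TopHat2 2.1.1, Bowtie2 2.3.5.1, Trimmomatic 0.39 and FastQC 0.11.9, without stating their order. The program and annotation behind the FPKM are not given in the sources used. Columns were tied to groups by name. The series design calls the samples biological replicates.

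All values are log2(FPKM + 1), a scale that understates changes of low genes, for genes with a tissue mean of at least 1 FPKM. One limma 3.58.1 model per tissue (R 4.3.3) had group as its only term, with trend and Benjamini-Hochberg adjustment at 0.05, and was tested on simulated data. Tables were made with pandas 2.3.3 and numpy 2.4.6 under Python 3.11.15, and plots with matplotlib 3.10.9. Errors are SE for log2 changes and SD for FPKM. Depth was estimated from steps in low values, and 64.5% to 72.8% of these in liver were no more than 0.2 from a whole number of fragments (40% by chance). In hippocampus the share was 53.1% to 69.8%, so some depths there are less certain.

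Members and lists were chosen with earlier results of these data known. Members are named if they passed in a liver contrast, had the highest liver mean of their subfamily, ranked in the first 5 of hippocampus, or were listed beforehand for their role; pathway genes are up to 4 per list and contrast, with Por, Alas1, Nr1i3 and Dbp. Members outside this rule that are named in the text were chosen after their values were seen. Positions are from GENCODE M21, with Cyp2d13 from RefSeq.

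Other pseudocounts, filters, scalings and left-out libraries were tried. The planned protein identities were replaced by coding-sequence identities.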

Additional observations from a re-analysis of the deposited data

Results flagged for a closer look

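In 6 of 95 groups of 4 libraries, 1 library lay far from the other 3, where chance gives about 1 in 20. In liver, HFD library 3 had 2.17 FPKM of Cyp2a4 against at most 0.115 in the others. CC-IF library 3 had 8.001 FPKM of Cyp2c40 against 1.07 to 1.45. CC-IF library 0 had 1.41 FPKM of Cyp2g1 against 0.437 to 0.558, and CC-IF library 2 had 0.269 FPKM of Cyp2t4, which was listed at 0 in the others. In hippocampus, CC library 2 had 6.41 FPKM of Cyp2j9 against 8.27 to 8.39, and HFD library 3 had 5.78 FPKM of Cyp2u1 against 4.27 to 4.504.

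Changes that differed between groups were those of Cyp2a5, whose fasting change in liver was higher on chow than on high-fat diet by 3.15 on the log2 scale, and those of Cyp2d22 and Cyp2u1, whose change of CC-IF against CC differed between liver and hippocampus by 0.66 and -1.60.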

How the results depend on the processing

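No named member changed sign past the threshold under another pseudocount, no filter, median centring, quantile normalization, a fit on only the groups compared, or any left-out library. Of 29 liver calls, 24 held under every left-out library. Under a fit of only CC and HFD, 5 members and 4.32% of all genes passed in CC against HFD. Under quantile normalization 2 members and 0.609% of all genes passed in the interaction. With no filter 7 of 19 members and 8.59% of all genes differed between tissues. The cause of these shifts was not tested. With 1 library left out, the count of members called ranged from 1 to 3 for CC against HFD (1 without HFD library 0, 2 or 3 or CC library 0, 1 or 2), 0 to 14 for HFD-IF against HFD, 13 to 17 for CC-IF against CC, 0 to 13 for CC-IF against HFD-IF, 9 to 16 for CC-IF against HFD and 1 to 13 for the interaction, and it was 0 in every hippocampal contrast. For the difference between tissues, left-out libraries, an alternative chosen after seeing the data, gave 2 in each of 29 cases. Cyp2c40 in CC-IF against HFD had an adjusted p of 0.0679 with no filter and 0.0845 with only those groups (0.0164 to 0.0902 over all alternatives), and Cyp2r1 0.0513 with no filter (0.00730 to 0.0759 over all). Pathway genes named in the text were run under the same settings, also chosen after seeing the data, and none changed sign past the threshold. No paired analysis was possible because the columns carry no replicate number of the labels, so the planned replicate block was not run. Depth limits the members near or below the filter most.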
